A study of Sus scrofa with 40 samples.

Results

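RNA of single pig oocytes at metaphase II, the arrest in which a ripe egg awaits the sperm, was set against the mtDNA state given in the labels, deficient or normal. The 12 libraries described here are those whose column in the deposited table begins with the date 22 September, 6 of deficient and 6 of normal oocytes, out of 29 single-oocyte libraries and 40 libraries in all. Every oocyte came from hybrid pigs of the breeds Large White, Duroc and Berkshire and is labelled as a mature oocyte. Both states share breed, stage and library method. Titles carry BCBneg for deficient and BCBpos for normal oocytes, letters that the labels do not spell out. RNA was extracted in the tube from each cell, libraries were made with the Nugen SoLo kit and a pig InDA-C primer mix that depletes unwanted transcripts, and reads were 100 bp paired-end from a HiSeq 3000. Animals, litters and maturation runs are not named. The only further label is the first number of the title: number 2 holds 2 deficient and 4 normal oocytes, and number 4 holds 4 deficient and 2 normal. An oocyte is named below by its state and the numbers of its title, as in deficient 4-5.

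A mammalian oocyte carries a very large stock of mitochondrial DNA (mtDNA), and the early embryo divides on that stock. mtDNA is copied by DNA polymerase gamma (catalytic subunit POLG) with the helicase TWNK, and it is packaged and transcribed with the help of TFAM. All of these are encoded in the nucleus. At metaphase II the oocyte makes almost no new RNA, so its transcripts are stored maternal mRNAs, which are kept, translated or degraded.

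The libraries held 706929 to 1668943 counts on named rows, and one row took most of them. LOC102158401, an uncharacterised locus, took 46.7% to 70.7% of the counts of a deficient oocyte and 56.2% to 65.5% of a normal one. Outside it and the 18S ribosomal RNA gene RN18S, 232358 to 753177 counts remained. Levels are given as CPM, the counts of a gene scaled to a total of 1000000 over all named rows. Where the text says "without the 2 rows", LOC102158401 and RN18S were left out of the total. A level set by these few counts is imprecise: 0 counts in a library allows a level of up to 1.80 to 4.24 CPM, which is 3 counts of its total, and covers counting error only. CPM are not divided by gene length, so levels are compared between oocytes and not between genes.

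Most transcripts of the oocyte list were counted, and most marker rows of neighbouring cells were at or near 0. GDF9, a growth factor of the oocyte, ran from 362 to 953 CPM (median 641) in the deficient oocytes and from 289 to 792 CPM (median 402) in the normal ones. BMP15, its partner, ran from 601 to 1936 CPM (median 1205) in the deficient oocytes and from 624 to 1299.6 CPM (median 805) in the normal ones. NOBOX, SOHLH1 and ZPBP of the same list had no count in any oocyte, and DDX4 and DAZL were at most at 8.34 and 12.6 CPM. Of 22 cumulus and granulosa marker rows, 12 had no count in any of the 12 oocytes, among them AMH, FOXL2, INHA and LHCGR, and 1 reached a mean of 10 CPM. The summed level of these rows was 20.3 to 50.8 CPM in deficient and 18.4 to 40.1 CPM in normal oocytes. The row that reached 10 CPM was INHBA, an activin subunit at 3.65 to 34.2 CPM (median 15.8) against 8.38 to 19.04 CPM (median 12.6). The summed theca and stroma markers, led by the collagen gene COL1A2, were at 15.9 to 59.7 and 15.96 to 43.5 CPM, with 6 of 12 rows at 0 throughout, and the leukocyte and blood markers at 1.99 to 25.01 and 1.52 to 21.2 CPM. The ranges of the states overlapped for each of these 3 marker lists.

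Of the 12 libraries, 4 stood apart from the rest on the first 3 principal components, namely normal 2-2, normal 2-3, normal 4-3 and deficient 2-1. They were also the 4 with the fewest genes detected, at 10253 to 10563 against 12894 to 15441 named rows with a count in the other 8. Genes detected came to 13081 ± 1308 (SD, n = 6) in deficient and 12155 ± 2098 (SD, n = 6) in normal oocytes (exact permutation p = 0.374, two-sided over 924 splits). Since 3 of the 4 are normal, log2 differences of genes picked by the naming rule are given both ways where they move by over 1.5 times without them. All pairs of oocytes of one state differed by more than counting noise: chi-square per degree of freedom was lowest, at 4.07, for normal 2-1 and normal 2-4.

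The share of RN18S was the one library measure, of 6 compared, in which the states parted within both title numbers. RN18S, the small-subunit ribosomal RNA, made up 3.52% to 4.86% of the counts of deficient oocytes (median 4.65%) and 2.67% to 4.37% of normal ones (median 3.56%). Deficient 4-1 and 4-2 lay inside the normal range, and the other 4 deficient oocytes were above every normal one. The means were 4.43% ± 0.513 and 3.52% ± 0.552 (SD, n = 6 each), with an exact permutation p of 0.0216 and 0.130 after adjustment over the 6 measures. Within title number 2 the means were 4.82% and 3.79%, and within number 4 they were 4.24% and 2.98%, without overlap in either. The exact p was 0.0667 within each, the smallest that 2 against 4 oocytes allow. LOC102158401 took 57.3% ± 8.99 and 62.7% ± 3.72 (SD, n = 6 each, exact permutation p = 0.206), and its difference pointed the other way within number 2, at 65.2% against 63.9%. Deficient 4-4 and 4-5 had the lowest shares of LOC102158401, at 48.9% and 46.7%, so a gene's CPM of all rows reads higher in them than its share of the other transcripts does.

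**Figure D1:**
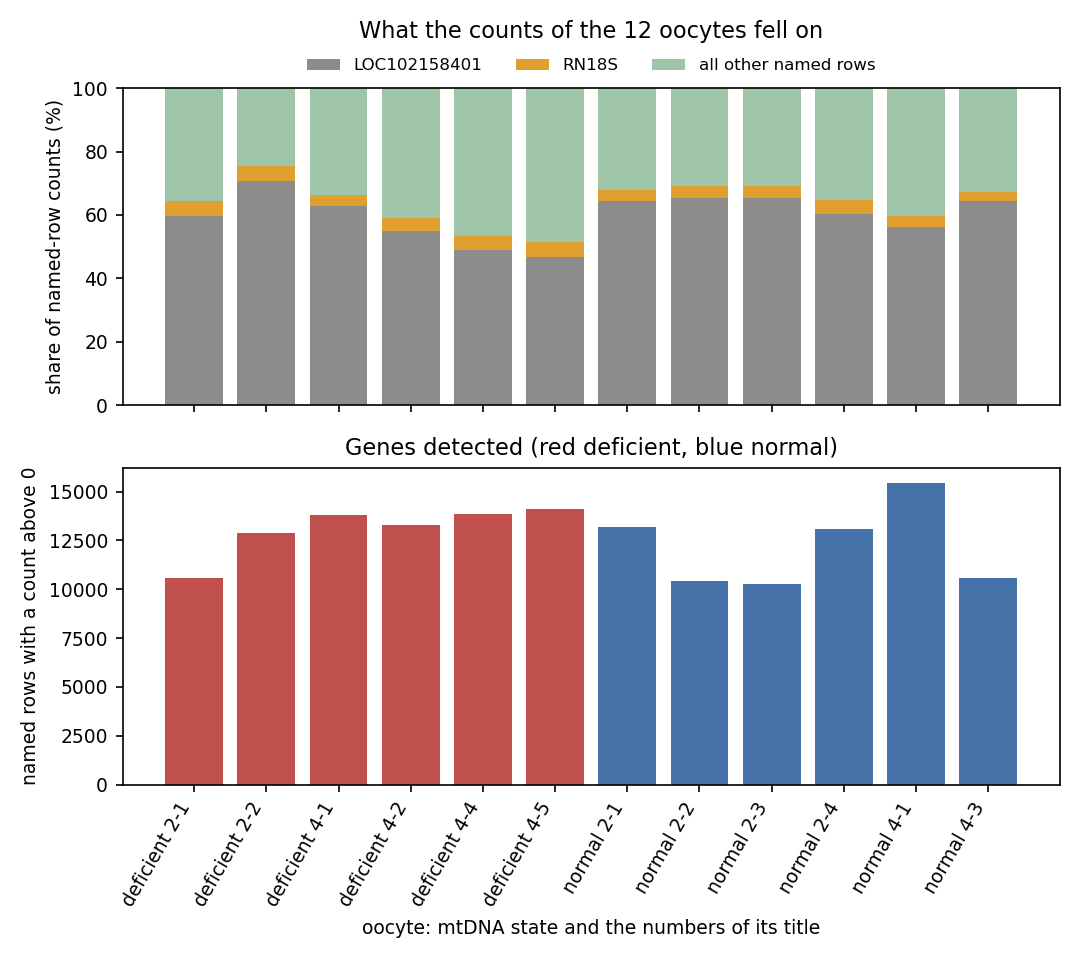
Composition of the 12 libraries of 22 September. The upper bars give the share of named-row counts (%) on LOC102158401, RN18S and all other rows in each oocyte, and the lower bars the number of named rows with a count above 0, in red for deficient and blue for normal oocytes. LOC102158401 takes 46.7% to 70.7% of each library, and normal 2-2, normal 2-3, normal 4-3 and deficient 2-1 have the fewest genes, at 10253 to 10563.

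Between deficient and normal oocytes edgeR called no gene. Its quasi-likelihood test, with Benjamini-Hochberg adjustment, called 0 of 6439 genes (0%) over the 12 oocytes, the smallest adjusted p being 0.172, and 0 of 10601 (0%) over the 4 sums of oocytes by state and title number. Here p over oocytes measures the spread between cells, since nothing says that they came from separate animals. Unadjusted p lay under 0.05 for 207 genes with a higher level in deficient oocytes (3.21% of those tested) and 214 with a lower one (3.32%), and over the 4 sums for 279 genes. DESeq2, given the same 12 oocytes, called 3 genes higher and 11 lower, and limma-voom called 0. Each gene described below therefore missed the threshold of edgeR in these 2 fits, and its values are given as measured. "Log2 difference" means deficient minus normal over the 12 oocytes from edgeR with TMM scaling, unless the sums are named. The states are unbalanced over the title numbers, so this value can also carry a difference between numbers 2 and 4.

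For DNA polymerase gamma, deficient oocytes had the higher levels of POLG. Its level ran from 78.1 to 177 CPM (median 113) in the deficient oocytes and from 39.9 to 79.2 CPM (median 54.5) in the normal ones. Deficient 2-1 was highest, and the ranges met only where deficient 4-5 (78.1 CPM) lay just below normal 2-2 (79.2 CPM). Within title number 2 the level was 113 to 177 against 39.9 to 79.2 CPM, and within number 4 it was 78.1 to 129 against 53.9 to 55.2 CPM. So the states did not overlap inside either number. Without the 2 rows the ranges were 161 to 499 against 124 to 257 CPM, and deficient 4-5 fell among the normal oocytes. The log2 difference was 0.88 (SE 0.26, adjusted p = 0.453) over the oocytes and 1.12 (SE 0.36) over the sums, and 0.93 (SE 0.31) without the 4 libraries that stood apart.

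**Figure D2:**
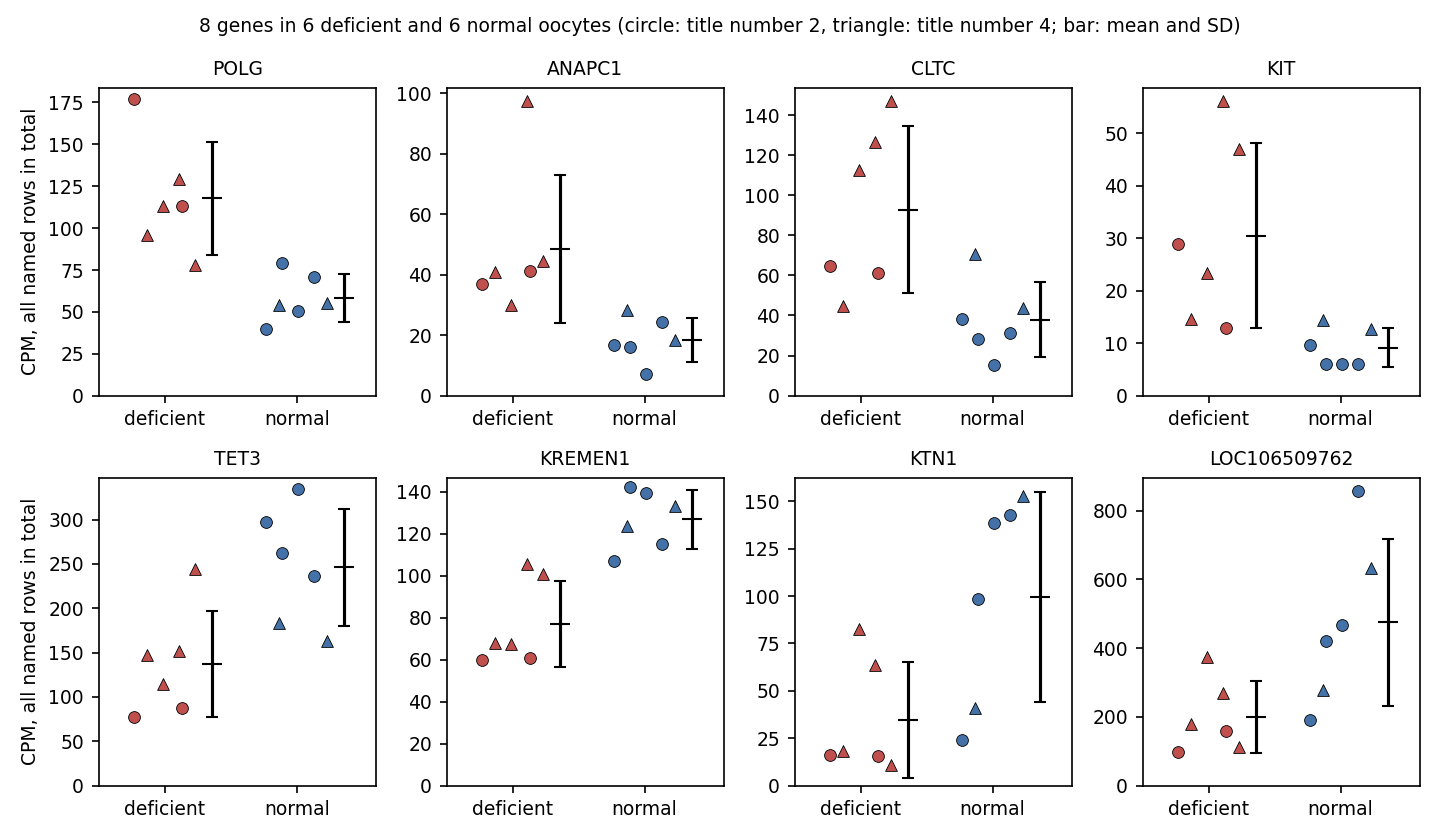
CPM (all named rows in the total) of 8 genes in the 6 deficient (red) and 6 normal (blue) oocytes. Circles are oocytes of title number 2, triangles those of number 4, and the bar is the mean with its SD. KREMEN1 and ANAPC1 show no overlap, POLG meets only at 78.1 and 79.2 CPM, and TET3 overlaps through deficient 4-5 at 244 CPM.

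The other genes of mtDNA copying and transcription were divided in direction. Of 39 genes on that list, 35 had a row and 14 could be tested: 7 lay higher and 7 lower in deficient oocytes, with a median log2 difference of 0.024, against -0.0077 over all 6439 genes. PRIMPOL, a primase and polymerase that restarts stalled replication, pointed the opposite way from POLG, at 5.85 to 39.4 CPM (median 18.2) against 27.1 to 51.6 CPM (median 33.8). All normal oocytes were above 4 of the 6 deficient ones, and deficient 4-4 and 4-5 lay among them. Without the 2 rows the ranges of PRIMPOL parted, at 17.4 to 80.99 against 84.6 to 167 CPM, and the log2 difference was -1.05 (SE 0.37, adjusted p = 0.622), and -0.64 without the 4 libraries that stood apart. LIG3, the ligase that seals mtDNA, had a narrow normal range of 239 to 309 CPM inside the deficient range of 112 to 403 CPM (log2 difference -0.39, SE 0.18). RRM2B, a ribonucleotide reductase subunit that supplies deoxynucleotides, was at 58.5 to 119 and 50.3 to 113 CPM (log2 difference 0.13).

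Among partners of POLG, TWNK was under the count filter of the fit of oocytes and TFAM had no counts. The helicase TWNK, counted under its older name C14H10orf2, was at 0 to 10.16 and 0 to 18.2 CPM, with a log2 difference of 0.68 (SE 0.99) over the sums. TFAM, the packaging factor, had 0 counts in all 12 oocytes, as had TFB2M, a transcription factor of mtDNA, and PPARGC1A, a coactivator of mitochondrial biogenesis. At this depth a low level of these 3 could not be seen. SSBP1, the single-strand binding protein, was at 0 to 31.6 and 2.60 to 36.6 CPM, and TRMT10C, which processes mitochondrial tRNAs, at 13.6 to 38.7 and 8.49 to 27.7 CPM. Their log2 differences were -0.29 (SE 0.66) and 0.60 (SE 0.37). The ranges overlapped in both, and the deficient median of TRMT10C, 30.3 CPM, was above its highest normal oocyte. Genes encoded by mtDNA itself are not analysed here.

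Among DNA methylation genes, TET3 and DNMT1 pointed in opposite directions. TET3, the dioxygenase that oxidises 5-methylcytosine in the zygote, ran from 77.6 to 244 CPM (median 131) in the deficient oocytes and from 163 to 335 CPM (median 249.5) in the normal ones. In 5 deficient oocytes the level was below that of every normal one, and deficient 4-5 (244 CPM) was above 3 of the 6 normal oocytes. The log2 difference was -1.11 (SE 0.23, adjusted p = 0.172), and it was -1.59 within title number 2 and -0.31 within number 4, -0.85 without the libraries that stood apart. Without the 2 rows the ranges were 219 to 502 against 454 to 1081 CPM. TET3 was one of the 14 genes that DESeq2 called (adjusted p = 0.0015), and edgeR called it when normal 4-1 was left out (adjusted p = 0.0298). DNMT1, the maintenance methyltransferase and an abundant oocyte transcript, ran from 993 to 2817 CPM (median 1973) in the deficient oocytes and from 899 to 1484 CPM (median 1172) in the normal ones, with the higher values in deficient 4-2, 4-4 and 4-5 and a log2 difference of 0.48 (SE 0.16, adjusted p = 0.524). On the list of DNA methylation and chromatin regulators, 12 of 26 tested members lay higher and the median log2 difference was -0.0041.

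By CPM of all rows, 1 of 5969 genes with a mean of at least 10 CPM (0.0168%) had all 6 deficient oocytes below all 6 normal ones, and 9 (0.151%) had them all above. Without the 2 rows in the total the counts were 18 (0.193%) and 23 (0.246%) of 9331 genes. Each such order is 1 of the 924 splits of 12 oocytes into 6 and 6, so some genes show it by chance. Whether these counts exceed chance was not tested. Genes described here and in the next paragraph were picked for their lack of overlap, which is therefore no support for a difference. KREMEN1 was the gene below under both totals, and ANAPC1, C5H12orf4, LOC102167002 and LOC102167103 were above under both. KREMEN1, a receptor for the Wnt inhibitor Dickkopf, ran from 59.7 to 106 CPM (median 67.7) in the deficient oocytes and from 107 to 142 CPM (median 128) in the normal ones. Deficient 4-4 (106 CPM) came closest to the normal oocytes, of which 2-1 was lowest (107 CPM). Without the 2 rows the gap was wider, with ranges of 165 to 248 against 305 to 461 CPM. The log2 difference was -0.93 (SE 0.20, adjusted p = 0.172), -0.90 and -0.83 within the title numbers and -0.62 without the 4 libraries that stood apart, and DESeq2 called the gene over all 12 (adjusted p = 0.0015).

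ANAPC1, the largest subunit of the anaphase-promoting complex that releases the egg from metaphase, ran from 30.01 to 97.3 CPM (median 41.1) in the deficient oocytes and from 7.08 to 28.2 CPM (median 17.6) in the normal ones. Deficient 4-4 stood far above the others, and the remaining 5 deficient oocytes, at 30.01 to 44.5 CPM, were still above every normal one. The log2 difference was 1.22 (SE 0.33, adjusted p = 0.385). C5H12orf4, an open reading frame of unknown role, was at 19.9 to 41.3 CPM (median 31.7) against 1.52 to 17.98 CPM (median 9.87), with the lowest values in normal 2-2 and 2-3, which are among the libraries that stood apart. Its log2 difference was 1.55 (SE 0.45, adjusted p = 0.449), and 1.09 without those libraries. LOC102167103 and LOC102167002, uncharacterised loci, were at 21.7 to 51.7 CPM (median 36.6) against 7.08 to 15.96 CPM (median 11.9) and at 12.2 to 36.9 CPM (median 25.003) against 0 to 11.3 CPM (median 6.22). PTCD2 (row LOC100519399), a pentatricopeptide protein of mitochondrial RNA processing, was at 11.5 to 38.7 CPM (median 15.4) against 0 to 11.3 CPM (median 8.43), without overlap, but without the 2 rows the ranges met at 25.2 to 115 against 0 to 34.4 CPM. LOC102165816, another uncharacterised locus above under the first total, was at 15.6 to 58.7 CPM (median 29.6) against 5.05 to 15.2 CPM (median 10.9) and had a log2 difference of 1.44 (SE 0.41, adjusted p = 0.385).

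LOC106509762 and KTN1 were among the 10 genes of smallest p over the oocytes and over the sums, and both had lower levels in deficient oocytes. LOC106509762, annotated as a long noncoding RNA, ran from 98.5 to 374 CPM (median 169.8) in the deficient oocytes and from 192 to 859 CPM (median 444) in the normal ones. Normal 2-1 and 4-1 lay within the deficient range, and the other 4 normal oocytes were above every deficient one. Its log2 difference was -1.45 (SE 0.32, adjusted p = 0.172) over oocytes and -1.33 (SE 0.28) over the sums. KTN1, kinectin, a receptor for kinesin on the endoplasmic reticulum, ran from 10.97 to 82.5 CPM (median 17.1) in the deficient oocytes and from 23.9 to 153 CPM (median 118) in the normal ones. Deficient 4-2 (82.5 CPM) and 4-4 (63.8 CPM) were above normal 2-1 and 4-1, while the other 4 deficient oocytes were below every normal one. The log2 difference of KTN1 was -1.81 (SE 0.45, adjusted p = 0.385), and -1.02 (SE 0.55) without the libraries that stood apart.

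CCDC186 and CCDC88A, also among the 10 of smallest p over the oocytes, had lower levels in deficient cells. CCDC186, which acts in dense-core vesicle formation, was at 21.005 to 83.9 CPM (median 37.01) against 44.7 to 213 CPM (median 94.8), and CCDC88A, the actin-binding protein girdin, at 16.3 to 59.7 CPM (median 44.3) against 38.3 to 143 CPM (median 91.7). Their log2 differences were -1.66 (SE 0.36, adjusted p = 0.172) and -1.36 (SE 0.32, adjusted p = 0.353), and normal 2-1 and 4-1 lay inside the deficient range in each, for CCDC186 together with normal 4-3. Within title numbers 2 and 4 CCDC186 was at -1.79 and -0.72, and CCDC88A at -1.27 and -1.02. ABHD17B, which removes palmitate from proteins, was at 30.5 to 101 CPM (median 58.7) against 68.7 to 118 CPM (median 90.05) (log2 difference -0.86, SE 0.22, adjusted p = 0.385). HCN2 (row LOC100625160), a cation channel, was at 42.7 to 159 CPM (median 92.8) against 94.02 to 171 CPM (median 141) (log2 difference -0.77, SE 0.20, adjusted p = 0.385). DESeq2 called HCN2 over the 12 oocytes (adjusted p = 0.0426). Without the 2 rows ABHD17B parted between the states, at 124 to 217 against 222 to 382 CPM, and HCN2 did not, at 174 to 327 against 296 to 523 CPM.

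CLTC, DHX29 and PSMC1, named for their small p, had higher medians in deficient oocytes. CLTC, the clathrin heavy chain, ran from 44.6 to 147 CPM (median 88.6) in the deficient oocytes and from 15.2 to 70.7 CPM (median 34.7) in the normal ones, and normal 4-1 was the only normal oocyte above any deficient one. The log2 difference was 1.08 (SE 0.27, adjusted p = 0.385). DHX29, a helicase of translation initiation, ran from 17.9 to 173 CPM (median 56.7) in the deficient oocytes and from 16.2 to 50.9 CPM (median 25.5) in the normal ones. Deficient 2-2, 4-2 and 4-4 were above every normal one, and the other 3 lay among them. Its log2 difference was 1.37 (SE 0.43, adjusted p = 0.524), and 1.80 (SE 0.51) without the libraries that stood apart. PSMC1, a proteasome ATPase, was at 24.9 to 95.9 CPM (median 51.02) against 13.1 to 27.7 CPM (median 20.2), with only deficient 2-1 and 2-2 inside the normal range, and a log2 difference of 1.13 (SE 0.31, adjusted p = 0.385). On the proteasome list, 14 of 24 tested members lay higher, with a median log2 difference of 0.19. C2H19orf43, an open reading frame, was at 9.50 to 49.04 CPM (median 29.1) against 0 to 13.2 CPM (median 8.88) (log2 difference 1.65, SE 0.49, adjusted p = 0.453).

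Other genes of smallest p over the 4 sums had low counts, and LOC102164107 and LOC102164554 had a count in 4 of the 12 oocytes each. LOC102166701, a long noncoding RNA, had its highest level in deficient 2-1 (64.7 CPM), while the other deficient oocytes ran from 1.46 to 24.5 CPM and the normal ones from 0 to 8.49 CPM. Its log2 difference was 2.68 (SE 0.73, adjusted p = 0.385), and 4.13 and 1.12 within title numbers 2 and 4. The pseudogene LOC102164107 had counts in deficient 2-2, 4-1 and 4-4, at 10.8 to 18.5 CPM, and in normal 2-3 alone, at 2.02 CPM. LOC102164554 had 0 counts in all deficient oocytes and 1.80 to 19.8 CPM in normal 2-2, 2-4, 4-1 and 4-3. The pseudogene LOC102167206 and the long noncoding RNA LOC102158335 were at 0 to 13.9 CPM (median 1.34) against 2.02 to 43.4 CPM (median 9.68) and at 0 to 2.52 CPM (median 1.80) against 0 to 21.2 CPM (median 14.04). Both overlapped, and reads of a pseudogene can come from its parent gene.

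Of transcripts typical of the oocyte, 11 of 14 tested members lay higher in deficient cells, where 3173 of all 6439 genes did (49.3%), with a median log2 difference of 0.25, and 13 of 16 without the libraries that stood apart. On 17 September the same list leaned the other way, with 4 of 16 higher (median -0.14). KIT, the stem cell factor receptor of the oocyte surface, ran from 12.9 to 56.2 CPM (median 26.1) in the deficient oocytes and from 6.06 to 14.4 CPM (median 7.84) in the normal ones. Deficient 2-2 (12.9 CPM) alone lay within the normal range, and without the 2 rows the states did not overlap, at 43.5 to 121 against 17.1 to 38.7 CPM. The log2 difference of KIT was 1.46 (SE 0.42, adjusted p = 0.385), and 1.62 and 1.09 within the title numbers. ZP2, an egg-coat protein that binds sperm, ran from 285 to 1237 CPM (median 900.2) in the deficient oocytes and from 269 to 967 CPM (median 382) in the normal ones, with deficient 2-2 among the lowest and a log2 difference of 0.59 (SE 0.23, adjusted p = 0.660). GDF9, BMP15 and ZP3 had log2 differences of 0.32 (SE 0.17), 0.22 (SE 0.16) and 0.14 (SE 0.24). Without the libraries that stood apart ZP2 was at 0.30, BMP15 at 0.088 and ZP3 at 0.45. The ranges of GDF9, BMP15 and ZP3 overlapped.

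Most tested meiosis genes lay lower in deficient oocytes. Of maternal-effect genes, 8 of 18 tested members lay higher (median -0.041), and of meiosis genes 12 of 37 tested members did (median -0.18). Among meiosis genes with an unadjusted edgeR p under 0.05, 3 lay higher, including ANAPC1, and 2 lower, including SMC3. Over the sums 14 of 45 meiosis genes lay higher, without the libraries that stood apart 15 of 40, and on 17 September 26 of 39. DPPA3, which protects maternal methylation in the zygote, was at 26.9 to 63.8 CPM (median 51.8) against 3.81 to 41.3 CPM (median 23.9) (log2 difference 0.79, SE 0.36, adjusted p = 0.738). NLRP9 (row LOC100519960), of the NLRP family of egg proteins, was at 537 to 1421 CPM (median 1007) against 525 to 884 CPM (median 613) (log2 difference 0.36, SE 0.16, adjusted p = 0.718). SMC3, a core ring protein of cohesin, which holds sister chromatids together, was at 7.96 to 58.3 CPM (median 23.8) against 16.8 to 73.9 CPM (median 51.4), with 3 deficient oocytes below every normal one. Its log2 difference was -1.16 (SE 0.41, adjusted p = 0.622), and -0.56 (SE 0.46) without the libraries that stood apart.

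Directions on the lists of the respiratory chain changed with the libraries used, and so did the number of members that could be tested. Of complex I subunits, 37 had a row and 6 could be tested, 2 higher and 4 lower (median -0.32). Without the libraries that stood apart, 6 of 10 tested lay higher (median 0.13). NDUFA8, an accessory subunit of complex I, was at 4.97 to 45.3 CPM (median 17.2) against 19.2 to 59.4 CPM (median 32.9), with a log2 difference of -0.96 (SE 0.41, adjusted p = 0.687) and of -0.15 without those libraries. COX6C, a subunit of cytochrome c oxidase, was at 13.6 to 42.8 CPM (median 19.2) against 4.04 to 33.9 CPM (median 7.06). Only normal 4-3 (33.9 CPM) lay inside the deficient range, and the log2 difference of 0.94 (SE 0.52, adjusted p = 0.770) was 2.26 in title number 2 and -0.28 in number 4. Of complexes II to V, 5 of 10 tested members lay higher (median -0.046), and 10 of 13 did without those libraries (median 0.26). SDHB of complex II had a log2 difference of -0.37 (SE 0.26), and -0.12 without them. Mitochondrial ribosomal proteins divided evenly, 17 of 33 tested members being higher (median 0.071). MRPL37 (row LOC100621283) and MRPL32 had log2 differences of -0.49 (SE 0.22) and -1.15 (SE 0.61), which were -0.25 and -0.56 without those libraries.

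Among genes of mitochondrial import, chaperones and sirtuins, 10 of 16 tested members lay higher (median 0.090). SIRT4, a sirtuin of the mitochondrial matrix, ran from 1316 to 5417 CPM (median 2356) in the deficient oocytes and from 1643 to 9458 CPM (median 4744) in the normal ones. Normal 2-1 (1643 CPM) was below 5 of the deficient oocytes, and deficient 4-1 (5417 CPM) was above 3 of the normal ones. The log2 difference was -1.10 (SE 0.36, adjusted p = 0.562), -0.95 (SE 0.30) over the sums and -0.66 (SE 0.47) without the libraries that stood apart. TIMM44, of the import motor, had a log2 difference of -0.60 (SE 0.46), and 0.17 without them. Of genes of mitochondrial dynamics and mitophagy, 7 of 15 tested members lay higher (median -0.0058), with OMA1, a protease of the inner membrane, at -0.44 (SE 0.25) and the prohibitin gene PHB at 0.84 (SE 0.64), or 0.55 without them.

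Metabolic genes gave medians close to that of all genes. For glycolysis and the pentose phosphate pathway 6 of 13 tested members lay higher (median -0.0028), and for pyruvate entry and the tricarboxylic acid cycle 8 of 15 tested members did (median 0.017). LDHA, lactate dehydrogenase A, was at 8.13 to 53.7 CPM (median 25.03) against 3.81 to 31.2 CPM (median 7.52) (log2 difference 0.97, SE 0.47, adjusted p = 0.761), and normal 4-1 was above 4 of the deficient oocytes. Its log2 difference was 0.92 within title number 2 and 0.35 within number 4. GPI, the glucose-6-phosphate isomerase, IDH3A of the citrate cycle and DLAT of pyruvate dehydrogenase had log2 differences of -0.74 (SE 0.46), 0.63 (SE 0.37) and 0.96 (SE 0.68), that of DLAT being 0.28 without the libraries that stood apart.

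Lipid genes included members of both directions. ELOVL5, an elongase of polyunsaturated fatty acids, was at 18.9 to 57.9 CPM (median 35.1) against 31.1 to 64.1 CPM (median 60.05) (log2 difference -0.81, SE 0.26, adjusted p = 0.524), with normal 4-3 the lowest normal oocyte. ACACA, the acetyl-CoA carboxylase that begins fatty acid synthesis, was at 52.9 to 226 CPM (median 156) against 56.6 to 164 CPM (median 68.1) (log2 difference 0.58, SE 0.22, adjusted p = 0.642). SQLE, squalene epoxidase of cholesterol synthesis, was at 42.7 to 143 CPM (median 95.6) against 26.3 to 70.1 CPM (median 53.3) (log2 difference 0.65, SE 0.24, adjusted p = 0.642), and NSDHL of the same pathway at -0.56 (SE 0.29), or -0.37 without the libraries that stood apart. Of lipid synthesis and storage genes 3 of 7 tested members lay higher (median -0.22), of cholesterol synthesis genes 9 of 16 tested members (median 0.16), and of fatty acid oxidation genes 3 of 9 tested members (median -0.19). ETFA and ACSL1, of electron transfer from fatty acids and of their activation, had log2 differences of 0.37 (SE 0.24) and 0.40 (SE 0.26).

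Genes of stress defence, cytosolic ribosomes and apoptosis completed the lists. Of antioxidant genes 5 of 14 tested members lay higher (median -0.15), with GSR (row LOC396625), glutathione reductase, at a log2 difference of -0.53 (SE 0.25) and GCLC, which makes glutathione's precursor, at 0.41 (SE 0.21). Of stress and chaperone genes 10 of 17 tested members did (median 0.031), with CHAC1, which degrades glutathione, at 34.6 to 80.7 CPM (median 45.1) against 45.5 to 84.9 CPM (median 68.03) and a log2 difference of -0.62 (SE 0.24, adjusted p = 0.642), and the chaperone HSPA4 at 0.66 (SE 0.40). Without the libraries that stood apart GSR was at -0.23 and CHAC1 at -0.39. Cytosolic ribosomal proteins had 13 of 23 tested members higher (median 0.070), which became 27 of 33 (median 0.48) without the libraries that stood apart and 21 of 46 (median -0.050) over the sums. RPL37 and RPL19 were at 1.23 (SE 0.61) and 0.97 (SE 0.53), and ribosomal protein genes share reads with many pseudogenes. Of 7 apoptosis and p53 genes tested, 6 lay higher (median 0.34). BIRC6, an inhibitor of apoptosis, was at 33.9 to 127 CPM (median 49.8) against 13.1 to 52.7 CPM (median 24.2) (log2 difference 0.81, SE 0.30, adjusted p = 0.641), while the survival gene BCL2L1 was at -0.27 (SE 0.15). MDM2, which restrains p53, had 0 to 4 counts per oocyte and was not tested.

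**Figure D3:**
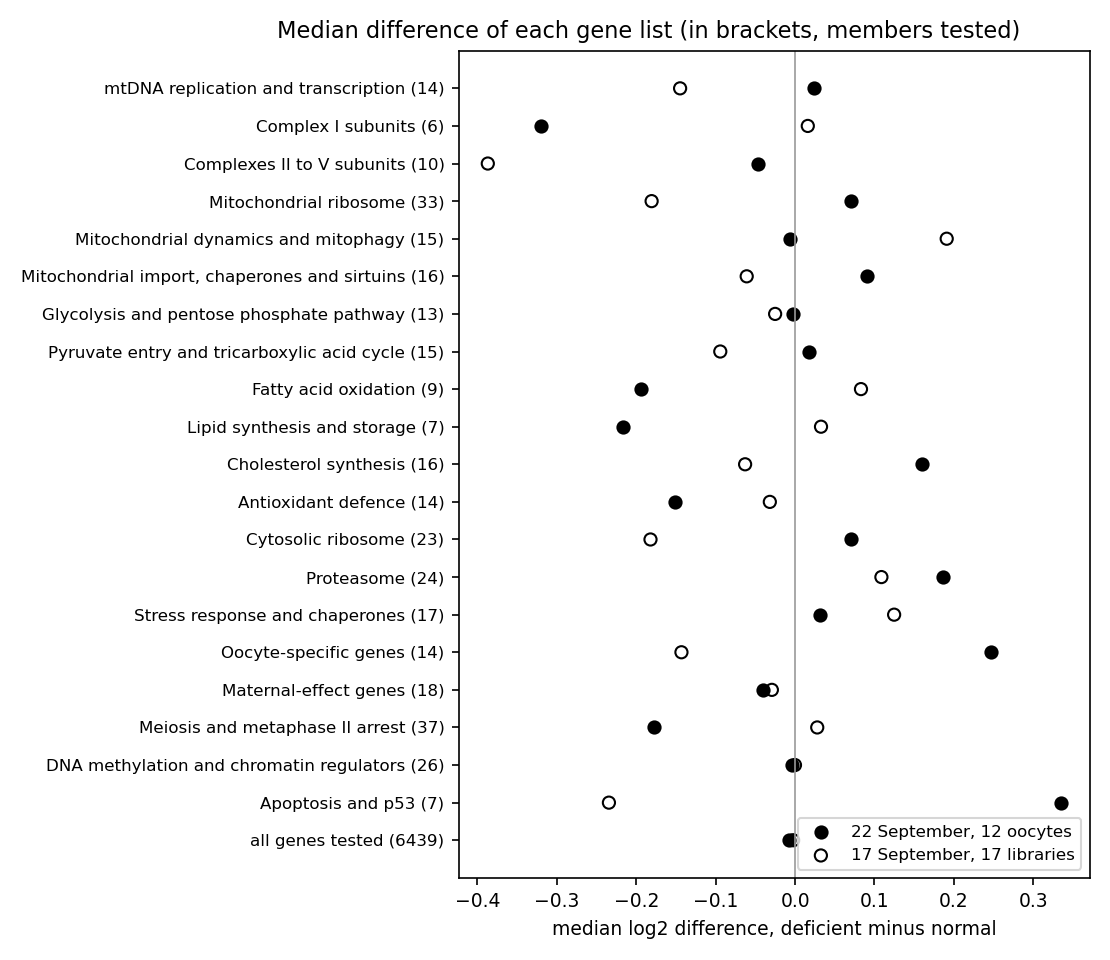
Median log2 difference (deficient minus normal) over the tested members of each gene list with at least 6 of them, for the 12 oocytes of 22 September (filled) and the 17 libraries of 17 September (open), with the number tested on 22 September in brackets. Over all 6439 genes the median is -0.0077, and the filled points of the lists lie between -0.32 for complex I and 0.34 for apoptosis and p53.

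The title numbers gave a second view of the same contrast, with different cells in each. Of 75 genes picked by the naming rule, 70 could be fitted within both numbers and 63 had the same direction in both. Their direction is no sign of stability, because most were chosen for a small p over all 12 oocytes or their sums. The log2 differences of numbers 2 and 4 were close for KREMEN1 (-0.90 and -0.83) and ABHD17B (-0.94 and -0.82), while that of TET3 was larger in size in number 2. COX6C, PHB and TMEM108 were higher in deficient oocytes of number 2 and not of number 4 (log2 differences of -0.28, -0.19 and -0.20). COL1A2 was higher in number 2 (0.50) and lower in number 4 (-1.19), and deficient 2-1 held its highest level (55.7 CPM).

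**Figure D4:**
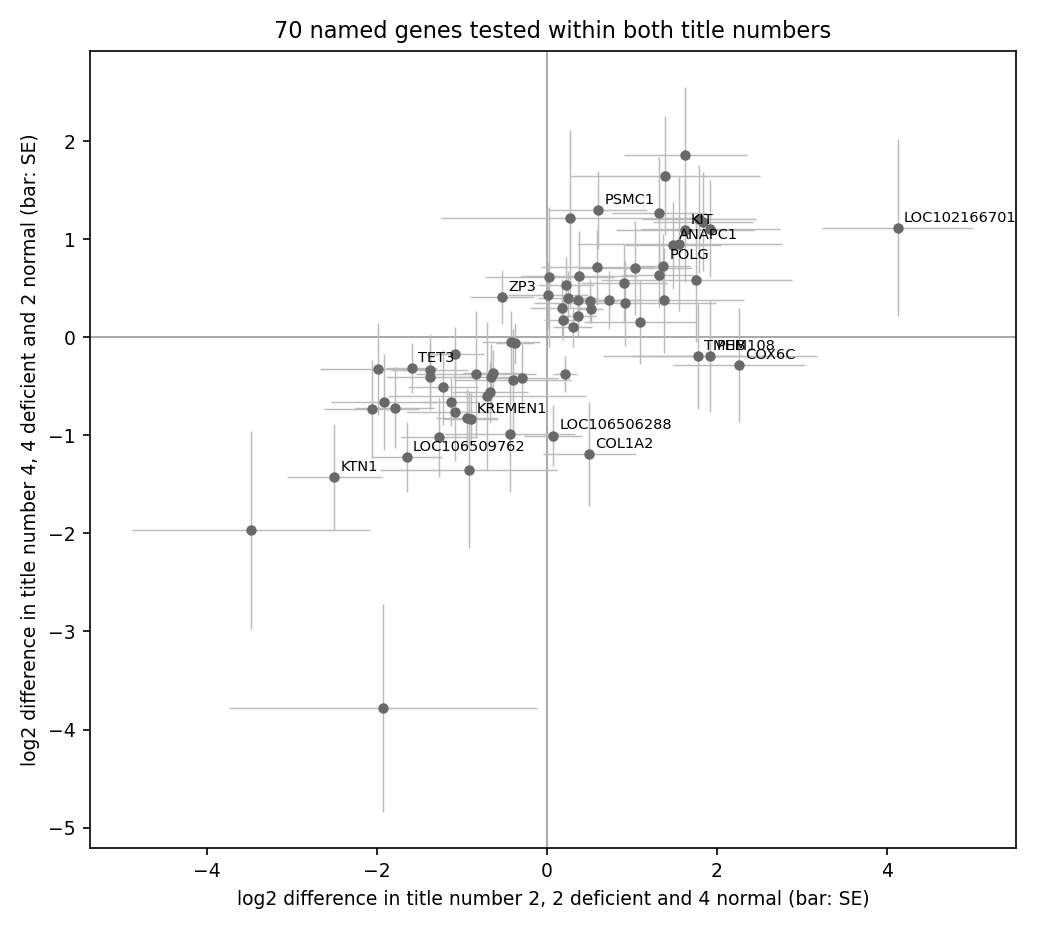
Log2 difference (deficient minus normal, edgeR) of 70 named genes within title number 2 (horizontal, 2 deficient and 4 normal oocytes) and within number 4 (vertical, 4 deficient and 2 normal), with bars of 1 SE. Most points lie in the lower left or upper right, 63 of 70, and COX6C, PHB, TMEM108 and COL1A2 lie to the right of 0 and below it.

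The contrast of 22 September was set beside that of 17 single-oocyte libraries of 17 September, 8 deficient and 9 normal, which share no library with it. Their titles hold 14 oocyte names, 7 of each state, since deficient 3-1, normal 3-1 and normal 3-2 each stand on 2 libraries. Libraries of one name differed by more than counting noise, at a chi-square per degree of freedom of 3.31, 9.70 and 5.30. From the lowest, these were ranks 1, 56 and 19 of the 64 pairs of one state. Libraries of one cell need not differ by counting noise alone, so this check cannot tell whether they come from one cell. They were kept apart in the main fit. Over 9 sums by date, state and title number, edgeR called 0 of 12911 genes (0%) whose state difference changed with the date, with 486 at an unadjusted p under 0.05. DESeq2 called 1, KTN1 (adjusted p = 0.0200). KTN1 had a log2 difference of -1.81 on 22 September and 0.24 (SE 0.18) on 17 September. On the latter date it ran from 78.5 to 228 CPM in deficient and from 50.2 to 154 CPM in normal libraries. Its change between the dates was -2.03 (SE 0.41) over the sums (adjusted p = 0.755). Across the 6103 genes tested on both dates, 2871 (47.0%) had the same sign, with a Pearson correlation of -0.073 and a Spearman correlation of -0.0758 across genes, which are not independent replicates. Of the 403 of these genes with an unadjusted p under 0.05 on 22 September, 162 (40.2%) had the same sign on 17 September.

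On 17 September the log2 differences of POLG and TET3 were smaller in size and opposite in sign, and that of KREMEN1 was smaller with the same sign. Each of these genes was picked, at least in part, for a small p on 22 September. That choice favours a larger size on that date. A log2 difference rests on TMM scaling and can differ in sign from the ratio of the mean CPM. POLG was at 73.3 ± 24.8 CPM (SD, n = 8) in deficient and 70.1 ± 21.4 CPM (SD, n = 9) in normal libraries of that date, a log2 difference of -0.15 (SE 0.20). Here n counts libraries, some of which share an oocyte name. TET3 was at 271 ± 55.6 and 199 ± 51.03 CPM (0.22, SE 0.14), and KREMEN1 at 74.6 ± 27.5 and 70.1 ± 21.4 CPM (-0.13, SE 0.19). PRIMPOL also had the sign opposite to that of 22 September, at 0.79 (SE 0.33), as did ELOVL5 (0.31, SE 0.17), ZP2 (-0.37, SE 0.15) and ANAPC1 (-0.51, SE 0.28). The date differences of POLG, TET3, PRIMPOL and ANAPC1 were 1.26 (SE 0.45), -1.22 (SE 0.38), -1.70 (SE 0.53) and 1.597 (SE 0.52) over the sums, none past the threshold (adjusted p = 0.999 for each).

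A smaller set had one direction on both dates. SIRT4 had log2 differences of -1.10 and -0.66 (SE 0.39), TTI2, a cofactor of PI3K-like kinases, of -0.83 (SE 0.27) and -0.63 (SE 0.22), and DNMT1 of 0.48 and 0.28 (SE 0.12). TMEM108, a membrane protein, was at 0.78 (SE 0.47) and 1.16 (SE 0.38). Without the libraries of 22 September that stood apart TTI2 was at -0.33 and TMEM108 at 0.31 on that date. Within title numbers 2 and 4 of 22 September TTI2 was at -0.64 and -0.36, and SIRT4 at -1.23 and -0.51. DNMT1 was at 0.37 and 0.39 there, and TMEM108 at 1.78 and -0.20. On 17 September edgeR called 2 genes of 6846 (0.0292%) over the 17 libraries, both lower in deficient oocytes, the long noncoding RNAs LOC106506288 and LOC102167309. With libraries of one name summed it called the same 2 (adjusted p = 0.000261 and 0.0324), and over the 5 sums of that date it called 0 of 12427, or 0% (adjusted p = 0.0677 and 0.226), with 352 at an unadjusted p under 0.05. LOC102167309 ran on 22 September from 19.9 to 149.8 CPM (median 29.9) in the deficient oocytes and from 23.4 to 152 CPM (median 115) in the normal ones, with deficient 4-1 and 4-2 among the normal oocytes and normal 2-4 (23.4 CPM) among the deficient ones. Its log2 differences were -0.996 (SE 0.45, adjusted p = 0.732) on 22 September, -0.19 without the libraries that stood apart, and -1.90 (SE 0.37) on 17 September. LOC106506288 was at 29.96 to 129 CPM (median 104) against 90.9 to 186 CPM (median 113) on 22 September, with deficient 4-1 far below the other 11 oocytes and a log2 difference of -0.57 (SE 0.28, adjusted p = 0.768), against -1.40 (SE 0.20) on 17 September. SSFA2, an actin-interacting protein, had 7.45 to 24.3 against 0 to 7.79 CPM. On 17 September it had 11.9 ± 7.61 (SD, n = 8 libraries) against 4.41 ± 3.12 CPM (SD, n = 9 libraries). It was under the count filter of both oocyte fits. These genes of both dates entered the list with earlier results of all single oocytes known, so their shared direction is no independent support.

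**Figure D5:**
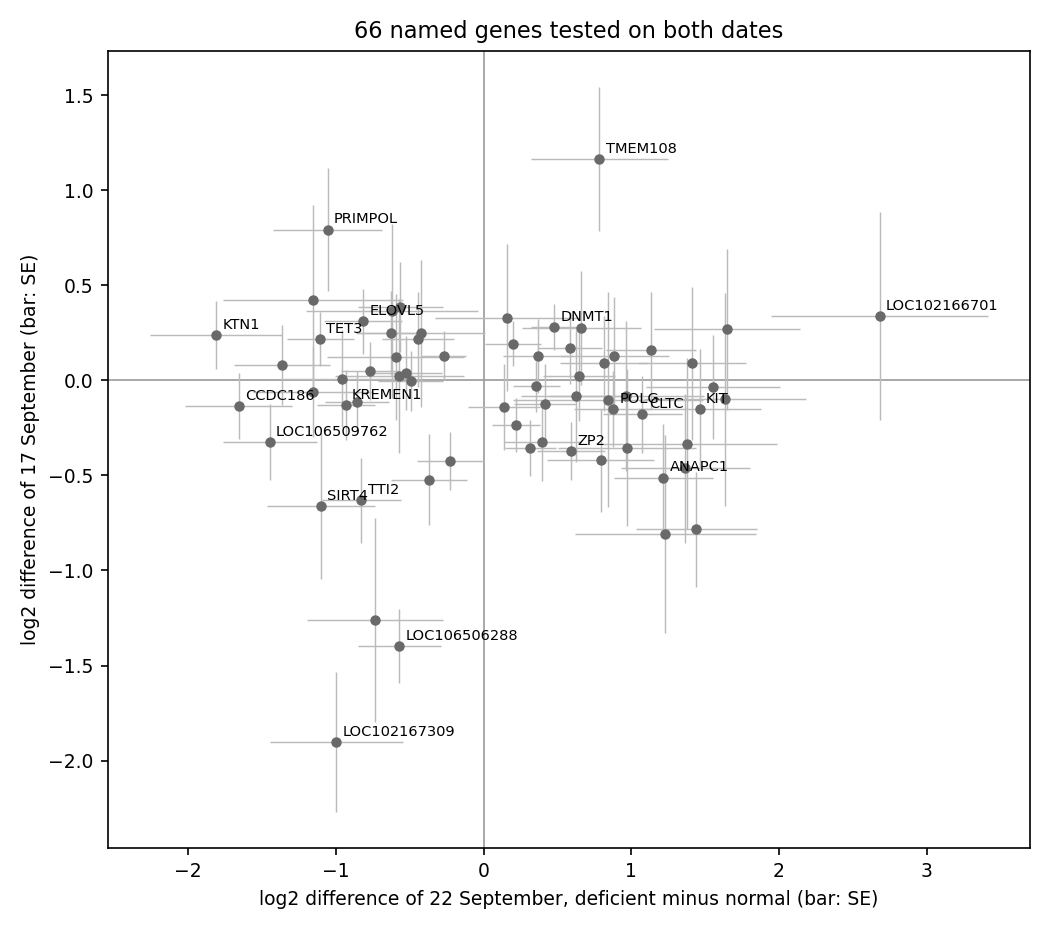
Log2 difference (deficient minus normal, edgeR) of 66 named genes on 22 September (horizontal, 6 and 6 oocytes) and on 17 September (vertical, 8 and 9 libraries), with bars of 1 SE. The points spread along the horizontal axis, 27 of 66 have the same sign on both dates, and LOC102167309, LOC106506288, SIRT4 and TTI2 lie below 0 on both. Most of the genes were picked by p or lack of overlap on 22 September, which widens the horizontal spread.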

How the data were processed

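RNA was measured in 12 single oocytes of 22 September, grouped by their labelled mtDNA state. The authors deposited raw counts per gene, 38794 named rows without normalization. TopHat2 2.0.14, edgeR and genome build Sscrofa10.2 are named, per the submitters' processing notes. How reads were counted, and whether by strand, is not given in the sources used here, so overlapping antisense genes cannot be told apart. A row without a gene name, equal to 1.12% to 8.15% of all counts of an oocyte, was left out. Symbols or IDs of 23001 rows matched a RefSeq table of another build, used for names only.

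Tests ran in R 4.3.3. The main one was the quasi-likelihood test of edgeR 4.0.16, following its standard filter on low counts and TMM scaling, with Benjamini-Hochberg adjustment over all genes and a threshold of 0.05. Fits used 4 sums by state and title number, the 12 oocytes, and 9 sums of both dates for state by date. SE is the size of the log2 difference divided by the square root of F. DESeq2 1.42.0, limma-voom (limma 3.58.1), RLE scaling, no filter, a total without LOC102158401 and RN18S, and fits leaving out oocytes were alternatives. For 6 library measures, an exact permutation test (two-sided) was used. Scripts were tested on simulated data. The labels do not tie oocytes to animals. A p-value here reflects only how far these cells differ, which may be technical.

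Genes were named by a rule: the 10 of smallest p in the fits of sums and of oocytes, since fewer than 5 passed; up to 6 on each side without overlap and with a mean of at least 10 CPM; the 2 of smallest p on each of 23 gene lists; and a written set that includes POLG, TWNK, SIRT4, DNMT1 and RN18S. LIG3, RRM2B, SSBP1, TRMT10C, TFAM, TFB2M, PPARGC1A, and the marker and oocyte genes at or near 0, fall outside it and were chosen after their values were seen. Members, lists and rule were chosen with earlier results of these data known. The result of 1 gene that the rule picks is not reported here.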

Additional observations from a re-analysis of the deposited data

Results flagged for a closer look

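A value was picked out where 1 of the 6 oocytes of a state lay far from the other 5, its gap to the nearest, divided by the whole range, being above Dixon's critical value. Of 162 groups of 6 examined, 16 held such a value. Chance flags about 1 in 20 groups, and genes of one oocyte are not independent of each other.

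Deficient 2-1, one of the 4 libraries that stood apart, held 3 of these values: it had 10563 genes detected against 12894 to 14123 in the other deficient oocytes, LOC102166701 at 64.7 CPM against 1.46 to 24.5, and COL1A2 at 55.7 CPM against 11.7 to 21.2. Deficient 4-4 held the high values of ANAPC1 (97.3 CPM) and of BIRC6 (126.7 CPM). Deficient 4-1 had PTCD2 (row LOC100519399) at 38.7 CPM and LOC106506288 at 29.96 CPM, the first above and the second below the others. DLAT stood at 31.7 CPM in deficient 4-2, and CHAC1 at 80.7 CPM in deficient 4-5.

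Among normal oocytes, 4-1 held 4 of the values, all high: ACSL1 at 59.9 CPM, ACACA at 163.6 CPM, GDF9 at 792.1 CPM and MDM2 at 2.40 CPM, the last from 4 counts where the other 5 normal oocytes had 0. Normal 2-3 had C14H10orf2 (TWNK) at 18.2 CPM and LOC102164107 at 2.02 CPM, from 2 counts. COX6C stood at 33.9 CPM in normal 4-3 against 4.04 to 9.59 CPM in the other normal oocytes. What sets these oocytes apart was not tested.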

How the results depend on the processing

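The counts of genes called by state were 0 over the 4 sums and 0 over the 12 oocytes under RLE scaling, limma-voom and without LOC102158401 and RN18S in the counts. With no filter on low counts they were 4 and 19, each of 21033 genes, and with DESeq2 1 of 10601 and 14 of 6439. The count for state by date was 3 of 23992 with no filter and 1 of 12911 with DESeq2. With the first title number as a replicate block, edgeR called 10 of 10601 genes over the sums, 4 higher and 6 lower. Among them were POLG (adjusted p = 0.0279) and SIRT4 (0.0390). Over the oocytes the blocked fit called 0 of 8238 (POLG 0.225). The number is a shared digit with no stated meaning. Deviations of same-numbered sums from the mean of their state correlated at 0.183 across genes. With 2 sums per state, numbers 2 and 4 must give the same value. Between oocytes of different states the mean correlation was 0.068 with the same number and -0.053 with the other. Leaving out 1 sum gave 0 to 4 over the sums (4 without the normal sum of number 4 and 1 without the deficient sum of number 4, where the lone sum of a state is assumed to vary like the other state) and leaving out 1 oocyte gave 0 to 5 over the oocytes (5 without normal 4-1: TET3, BRINP2, CCDC186, LOC106509762 and CCDC88A), and 0 to 0 for state by date. That last exclusion was chosen after seeing the data, as were fits that gave 1 within title number 2 (LOC106508802), 1 within number 4 (LOC106506689) and 0 without the 4 libraries that stood apart. BRINP2, LOC106508802 and LOC106506689 are named here after their values were seen. On 17 September the 2 genes called over libraries were 0 over sums. Genes without overlap numbered 10 of 5969 by all rows, 41 of 9331 without the 2 rows in the total and 125 of 6082 without the 4 libraries. The cause of these shifts was not tested, except that fewer oocytes make a lack of overlap easier.

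Of 68 genes followed over up to 21 settings, 58 never changed direction and 11 passed the threshold in some setting. Direction turned within title number 2 for COL1A2 (0.50), ZP3 (-0.53, and -0.051 with the replicate block), LOC106506288 (0.069) and LOC102158401 (0.21). Within number 4 it turned for COX6C (-0.28), PHB (-0.19) and TMEM108 (-0.20). NDUFA2 turned with limma-voom (0.045), without normal 2-3 (0.076) and without the 4 libraries (0.44), TIMM44 without the 4 (0.17), and INHBA with limma-voom (-0.0924), without deficient 4-2 (-0.14) and without the 4 (-0.12). Within number 2 the differences also turned for counts outside the 2 rows (-20947.8), genes detected (-7), the share of LOC102158401 (1.27 percentage points) and that of the unnamed row (1.05). The cause of these turns was not tested. In a single oocyte, levels under 1.80 to 4.24 CPM cannot be told from 0 at this depth.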
